A study of Mus musculus with 10 samples.

Results

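The genes described here are the interleukins and interleukin receptors outside the interleukin-1 family, in epithelial crypts of the mouse distal colon. They were chosen by name: every row of both tables whose symbol begins with Il and a digit, except the interleukin-1 genes that begin with Il1 and a letter, Il18 genes and Il33. This rule gave 63 of 23364 genes, of which 28 are ligands and 32 are receptor chains. The other 3 are Il16, the enzyme gene Il4i1, and Il8, which RefSeq lists as a synonym of the chemokine gene Cxcl15. RNA of crypts released with EDTA was sequenced from AOM+DSS mice, given the carcinogen azoxymethane (AOM) and then dextran sulfate sodium (DSS), which injures the gut lining (n = 3 libraries), from mice given DSS alone (n = 4), and from untreated control mice (n = 3). The design calls the AOM+DSS condition a cancer induced by inflammation and the DSS condition inflammation. The sources used here give no strain, age, dose or time. The labels also do not say whether each library is from its own animal, so the p-values speak of the spread among these libraries alone, part or all of which may be technical.

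Interleukins are secreted signals that immune, stromal and epithelial cells exchange through receptors built from a few shared chains. The common gamma chain serves the lymphocyte cytokines, gp130 serves the interleukin-6 group, and the Il17ra chain pairs with partner chains for the interleukin-17 group. In the colon, epithelial cells carry receptors for interleukin-22, interleukin-10 relatives, interleukin-4, interleukin-13 and interleukin-17, while the ligands come mostly from lymphoid and myeloid cells next to the crypt.

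The start regions of 3 members are shown because these genes had adjusted p-values under 0.05 and stood for a receptor that rose, a receptor that fell and a ligand that rose. Each is the 250 bases before the RefSeq start site on GRCm38.p6, a different build from the authors' mm9, read 5′ to 3′ on the plus strand, at chr7:125552021-125552270 for Il4ra, chr6:113458521-113458770 for Il17re and chr1:20730655-20730904 for Il17a. Capitals mark a match to the AP-1 letters TGANTCA, a loose pattern in which N is any base. In the Il17a match that base is A.
Il4ra: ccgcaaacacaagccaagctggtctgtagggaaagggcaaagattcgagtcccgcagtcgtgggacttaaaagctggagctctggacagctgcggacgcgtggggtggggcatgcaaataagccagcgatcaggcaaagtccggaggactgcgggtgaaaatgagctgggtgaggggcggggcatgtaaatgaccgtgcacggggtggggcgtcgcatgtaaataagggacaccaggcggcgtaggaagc
Il17re: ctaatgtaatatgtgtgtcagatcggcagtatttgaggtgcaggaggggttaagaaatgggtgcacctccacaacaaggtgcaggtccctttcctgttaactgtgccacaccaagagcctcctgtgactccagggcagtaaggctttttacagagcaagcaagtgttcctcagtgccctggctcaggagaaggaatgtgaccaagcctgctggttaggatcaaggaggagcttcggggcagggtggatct
Il17a: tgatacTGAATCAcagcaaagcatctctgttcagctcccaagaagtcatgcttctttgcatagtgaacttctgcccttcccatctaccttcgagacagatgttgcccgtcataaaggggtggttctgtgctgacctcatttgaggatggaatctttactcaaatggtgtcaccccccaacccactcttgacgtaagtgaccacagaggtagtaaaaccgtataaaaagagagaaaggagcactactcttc

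The AP-1 letters occurred on either strand in 6.75% of 32851 promoters of this length and in 11 of 54 promoters of the 47 members with an entry. The window of Il17a held them at bases 7 to 13. The windows of Il4ra and Il17re matched neither these letters nor the STAT letters TTCNNNGAA, which were searched on both strands too and occurred in 7.02% of all promoters and in 4 of 54 member promoters. These matches describe letters and not binding. The Il4ra window was 59.6% G and C, the Il17re window 52.4% and the Il17a window 46.0%, against a median of 52.4% over all promoters.

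Values are normalized reads, meaning reads scaled for the depth of their library. The authors deposited group means, and the whole reads behind each mean were recovered for each library. Libraries are lettered by depth within a group, the deepest as a, and these letters are not tied to the labels' replicate numbers. Recovered reads numbered 16124627 to 23509031 per AOM+DSS library and 14840461 to 16504667 per control library. In the DSS group they numbered 4016838 to 7940511, because means with more than 1 fitting combination are left out, and the recovered genes held 31.8% of the DSS mean total. Of the 63 members, 59 were recovered in all 10 libraries, and Il17rc, Il13ra1, Il22ra1 and Il4ra were not recovered in DSS. The crypt label was checked with 8 general epithelial markers, whose summed means in the authors' deposited table were 219136 in AOM+DSS, 246361 in DSS and 219917 in control. The sums of 5 colonocyte markers were 42475.5 in AOM+DSS, 71025.5 in DSS and 78999.8 in control, and those of 5 goblet cell markers were 150803 in AOM+DSS, 199500 in DSS and 191335 in control, with 1 of these 10 genes called by the authors' deposited table, a goblet cell marker that was lower in AOM+DSS. The libraries also held RNA of other cells. The summed reads of 12 T and NK cell markers were 825, 918 and 1211 in the AOM+DSS libraries, 5243, 917, 736 and 955 in the DSS libraries and 301, 939 and 218 in the control libraries. DSS library a and control library b stood apart in their groups by these markers. The sums of 6 B and plasma cell markers were 502, 244 and 1025 in AOM+DSS, 8828, 3009, 1736 and 1872 in DSS and 182, 966 and 119 in control, again highest in DSS library a and control library b. Of the myeloid, neutrophil and mast cell markers, Mpo, Camp and Fcer1a were at 0 in control and Tpsab1 was at 0 in DSS. In bulk RNA, fewer cells of a type and less RNA per cell cannot be told apart.

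Of the 63 members, 7 had no read in any library, namely the ligands Il2, Il3, Il9, Il20 and Il31, the receptor chain Il11ra2 and the enzyme gene Il4i1. At least 1 read was found for 56, and 34 had a mean of at least 10 over the 3 groups. Receptor chains of barrier cytokines led the family. Per kilobase of the longest coding transcript, Il17rc was first in every group, with mean levels of 1281 in AOM+DSS, 2019 in DSS and 2012 in control. It was followed in control by Il10rb at 903, Il22ra1 at 827 and Il13ra1 at 613 per kilobase. By level per kilobase, Il4ra held rank 5 in AOM+DSS and in DSS and rank 10 in control, while Il17re held rank 8 in AOM+DSS and in DSS and rank 5 in control. Together the members took 0.108% of the summed mean in AOM+DSS, 0.109% in DSS and 0.0853% in control, and 4 of them held 64.5% of that in AOM+DSS, 60.5% in DSS and 66.6% in control.

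In AOM+DSS crypts, the receptor chains Il4ra and Il3ra and the ligand Il17a rose, and the receptor chain Il17re and the ligand Il15 fell. These were the 5 of 56 tested members with an adjusted p under 0.05 in the authors' deposited table, where 8.89% of all genes tested passed (5.54% higher and 3.35% lower). The members' share was near that background, as it was in DSS. The members Il23a, Il6 and Il13ra1 lay just outside, with adjusted p-values of 0.0557, 0.0637 and 0.0683 in the authors' deposited table. In DSS crypts, Il4ra rose and Il17re fell, which made 2 of 53 tested members in the authors' deposited table against 4.39% of all genes (2.61% higher and 1.78% lower). Means were higher than in control for 39 members and lower for 17 in AOM+DSS, and higher for 40 and lower for 13 in DSS. Over all genes, they were higher for 9708 and lower for 8626 in AOM+DSS, and higher for 9453 and lower for 8646 in DSS. Both comparisons use the same control libraries. Among members with reads in both groups, the median log2 ratio in the authors' deposited table was 0.71 over 45 members for AOM+DSS, against 0.02 over all 16911 such genes, and 0.76 over 46 members for DSS, against 0.02 over all 16797 such genes.

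**Figure D1:**
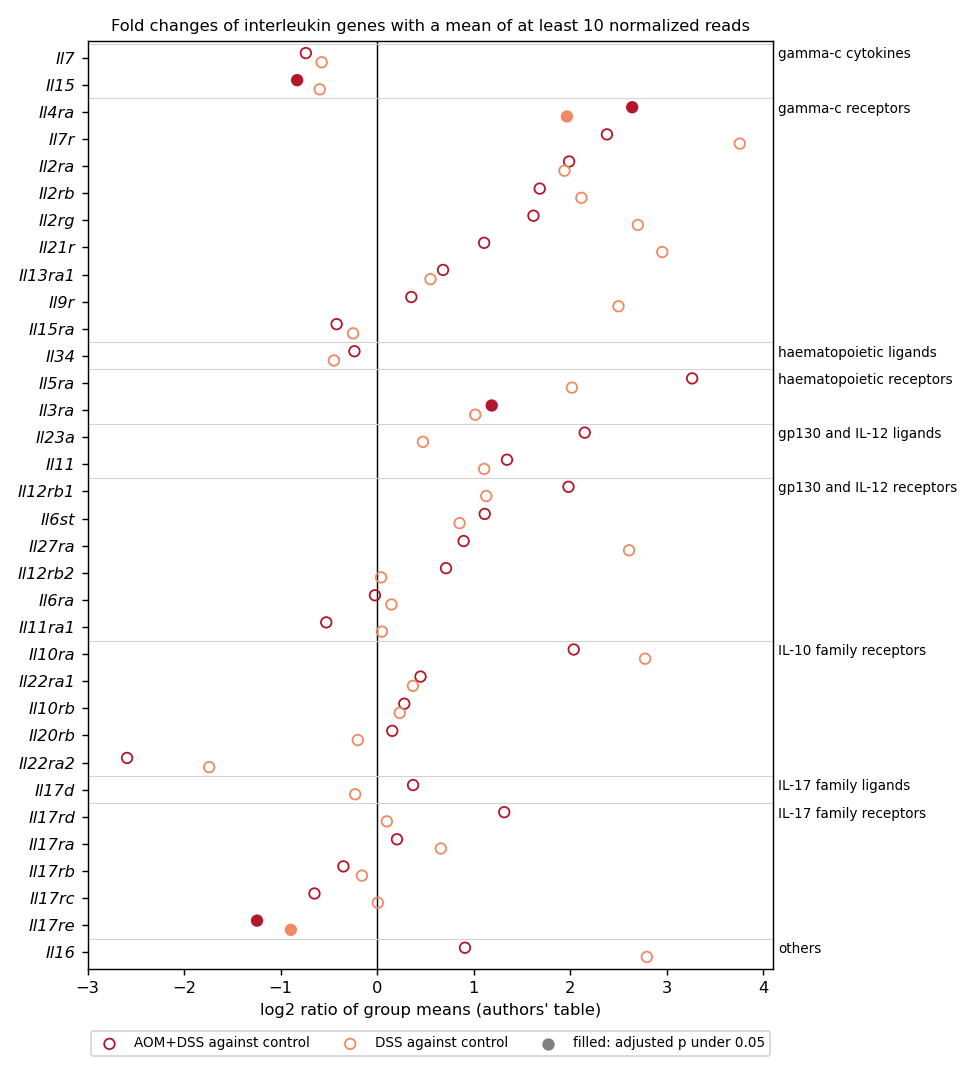
Log2 ratio of the treated to the control mean in the authors' table for the 34 members with a mean of at least 10 normalized reads, ordered by role, with AOM+DSS in dark red and DSS in orange. Filled circles mark an adjusted p under 0.05, which 4 members reached in AOM+DSS (Il4ra, Il3ra, Il15 and Il17re) and Il4ra and Il17re in DSS; Il17a has a mean under 10 and is not drawn.

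The recovered libraries allowed a second test, limma on log2(normalized reads + 1), with p-values adjusted over all genes fitted. By limma, 12 of 56 members passed in AOM+DSS against control, 10 higher and 2 lower, where 17.3% of all genes passed (10.8% higher and 6.44% lower). The 10 higher were Il4ra, Il6st, Il6, Il13ra1, Il27, Il3ra, Il17a, Il7r, Il10ra and Il22ra1, and the 2 lower were Il17re and Il15. Of these, Il27 was near the floor, with 7 reads over the AOM+DSS libraries, 1 over DSS and 0 over control. Its adjusted p for AOM+DSS in the authors' deposited table was 0.962. In DSS against control, 1 of 49 members passed, Il17re, which fell, where 5.6% of all genes passed (2.94% higher and 2.67% lower). The median limma log2 value over the members fitted was 0.79 in AOM+DSS, against 0.04 over all genes. In DSS it was 0.34, against -0.01 over all genes. All AOM+DSS libraries lay above all control libraries for 22 of 56 members and below them for 5, against 20.8% and 17.7% of all genes (38.5% in either direction). All DSS libraries lay above all control libraries for 5 of 49 members and below for 2, against 9.32% and 10.7% of all genes (20.1% in either direction).

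Il4ra, the chain that both the interleukin-4 and the interleukin-13 receptors contain, rose in both treatments. Its libraries had 3194, 4925 and 2153 normalized reads in AOM+DSS and 451, 738 and 459 in control, with a DSS mean of 2142. The AOM+DSS and control libraries did not overlap. Of the immune marker sums, the myeloid and neutrophil ones shared its library order in AOM+DSS. The sums of 11 myeloid markers were 5495, 12181 and 3749.5 in AOM+DSS, 3016, 2211, 1514 and 1771 in DSS and 398, 1829 and 219 in control. The sums of 5 neutrophil markers were 2971, 8596 and 2002 in AOM+DSS, 768, 4968, 79.3 and 146 in DSS and 7.72, 13.8 and 5.296 in control. In AOM+DSS, library b was highest and library c lowest in Il4ra and in the myeloid and neutrophil sums. In control, library b was highest in all 3, and also in the T and NK and the B and plasma cell sums. The myeloid sum of control library b was above those of DSS libraries c and d, while its Il4ra level was below the DSS mean. The T and NK, B and plasma and mast cell sums were instead highest in AOM+DSS library c, at 1211, 1025 and 11167. The part of any of these cells in the Il4ra level was not tested. The authors' deposited table gave a log2 ratio of 2.64 for AOM+DSS, a 6.24-fold mean (adjusted p = 2.41e-06), and of 1.96 for DSS, a 3.902-fold mean (adjusted p = 0.000856). Limma gave 2.60 ± 0.31 (log2 ± SE, adjusted p = 0.00327) for AOM+DSS. In DSS, 2 sets of whole reads fitted the mean, either 472, 5380, 1374 and 1345 or 2514, 2012, 1834 and 2210 normalized reads in libraries a to d. With the first set limma gave 1.46 ± 0.66 (adjusted p = 0.240), and with the second 1.99 ± 0.19 (adjusted p = 0.00131), so the limma call in DSS depends on a choice the files do not settle.

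Il13ra1, which joins Il4ra in the receptor that epithelial cells use for both ligands, had 3833, 3304 and 3815 normalized reads in AOM+DSS and 2399, 2532 and 1900.2 in control, and a DSS mean of 3336. Here too AOM+DSS lay wholly above control, and limma gave 0.69 ± 0.13 (log2 ± SE, adjusted p = 0.0149). The call is not in the authors' deposited table (log2 0.68, adjusted p = 0.0683; DSS 0.55, adjusted p = 0.117). It was lost from the limma fit without AOM+DSS a, control a or control c (adjusted p over the libraries left out 0.0119 to 0.0716). The ligands were close to absent. Il4 had 3 reads over the AOM+DSS libraries, 2 over the DSS libraries and 0 over the control libraries, and Il13 had 4 over AOM+DSS, 1 over DSS and 0 over control. Il13ra2, a decoy receptor for interleukin-13, averaged 0.616 normalized reads in AOM+DSS, 0 in DSS and 2.304 in control, where all 7 reads were in library b.

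**Figure D2:**
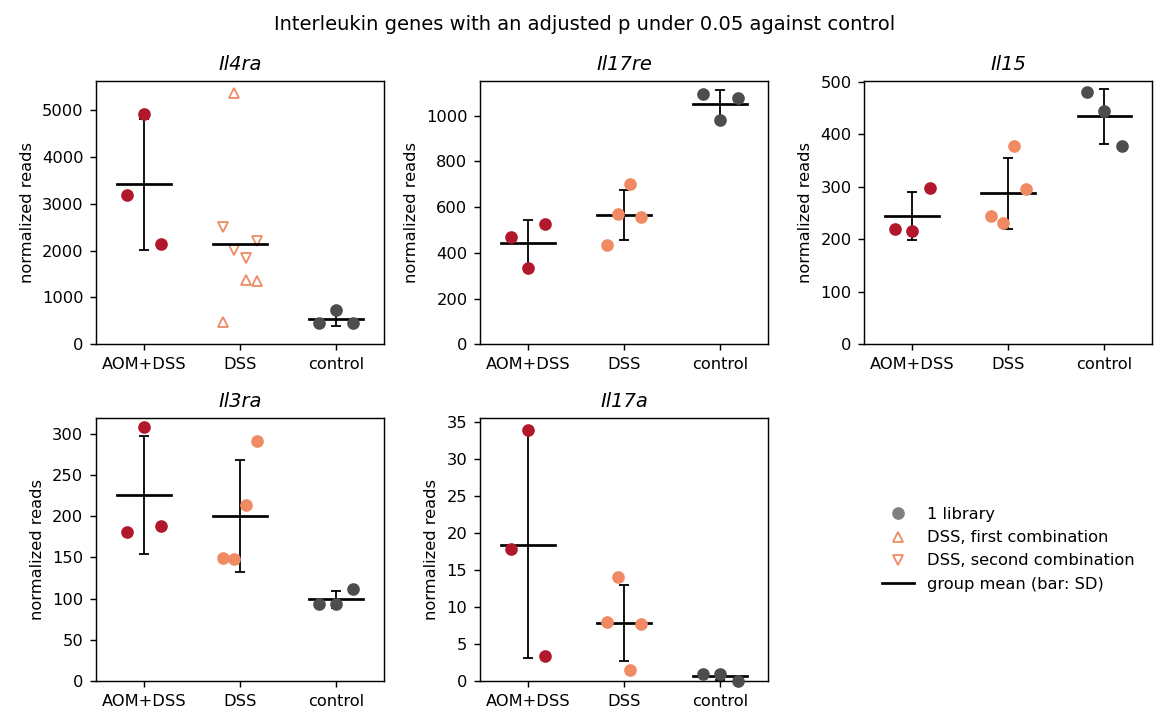
Normalized reads of the 5 members with an adjusted p under 0.05 in the authors' table, by group, 1 point per library, with the group mean and SD. Triangles show the 2 sets of whole reads that fit the Il4ra mean in DSS; the AOM+DSS libraries of Il17re lie between 333 and 528, all below the control libraries at 983 to 1097.

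Il15 was the 1 ligand of the gamma-c group that was called, and it was lower in AOM+DSS. Il15, which sustains intraepithelial lymphocytes, had 219, 216 and 297 normalized reads in AOM+DSS, 243, 231, 378 and 296 in DSS and 481, 444 and 377 in control. Every AOM+DSS library was below every control library, and DSS library c reached the lowest control library. In the authors' deposited table the log2 ratio was -0.83 for AOM+DSS (adjusted p = 0.0302) and -0.60 for DSS (adjusted p = 0.153). Limma gave -0.84 ± 0.18 for AOM+DSS (log2 ± SE, adjusted p = 0.0212), with adjusted p-values of 0.0102 to 0.109 when 1 library was left out. The call was lost without AOM+DSS a, AOM+DSS b, control a or control c. Il7, a survival factor for lymphocytes made by epithelial and stromal cells, had 135, 99.3 and 188 in AOM+DSS, 123, 194, 160.0 and 154 in DSS and 214, 256 and 234 in control. Both treated groups lay wholly below control, but no test passed (limma adjusted p = 0.071 for AOM+DSS and 0.123 for DSS). Il15ra, the chain that presents interleukin-15, had 203, 253 and 291 in AOM+DSS, 239, 247, 389 and 245 in DSS and 343, 314 and 343 in control, and did not pass in either comparison.

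Among the lymphocyte chains of the gamma-c group, 1 library stood high in DSS and 1 in control. Il2rg, the common gamma chain itself, had 147, 214 and 198 normalized reads in AOM+DSS, 1061, 274, 112 and 132 in DSS and 28.96, 136 and 16.9 in control. Il7r, the interleukin-7 receptor chain, had 75.1, 146 and 82.9 in AOM+DSS, 914, 65.1, 43.9 and 27.9 in DSS and 11.6, 41.5 and 5.296 in control. Il21r, the interleukin-21 receptor chain of B and T cells, had 63.95, 71.1 and 102 in AOM+DSS, 721, 194, 119 and 101 in DSS and 18.3, 80.98 and 10.6 in control. DSS library a and control library b were the highest of their groups in all 3 genes, as in the T and NK cell marker sums given above. For Il21r, all DSS libraries still lay above all control libraries, while Il2rg and Il7r overlapped. Limma gave 2.95 ± 0.80 for Il21r in DSS (log2 ± SE, adjusted p = 0.0691), and 2.34 without DSS a (adjusted p = 0.0929). Over the 7 gamma-c receptor chains with a mean of at least 10 and recovered libraries, DSS library a was highest for 6 and control library b for 6. The authors' deposited table had log2 ratios of 2.70 for Il2rg, 3.76 for Il7r and 2.95 for Il21r in DSS, with adjusted p-values of 0.491, 0.711 and 0.457. The part of those cells in the levels was not tested.

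**Figure D3:**
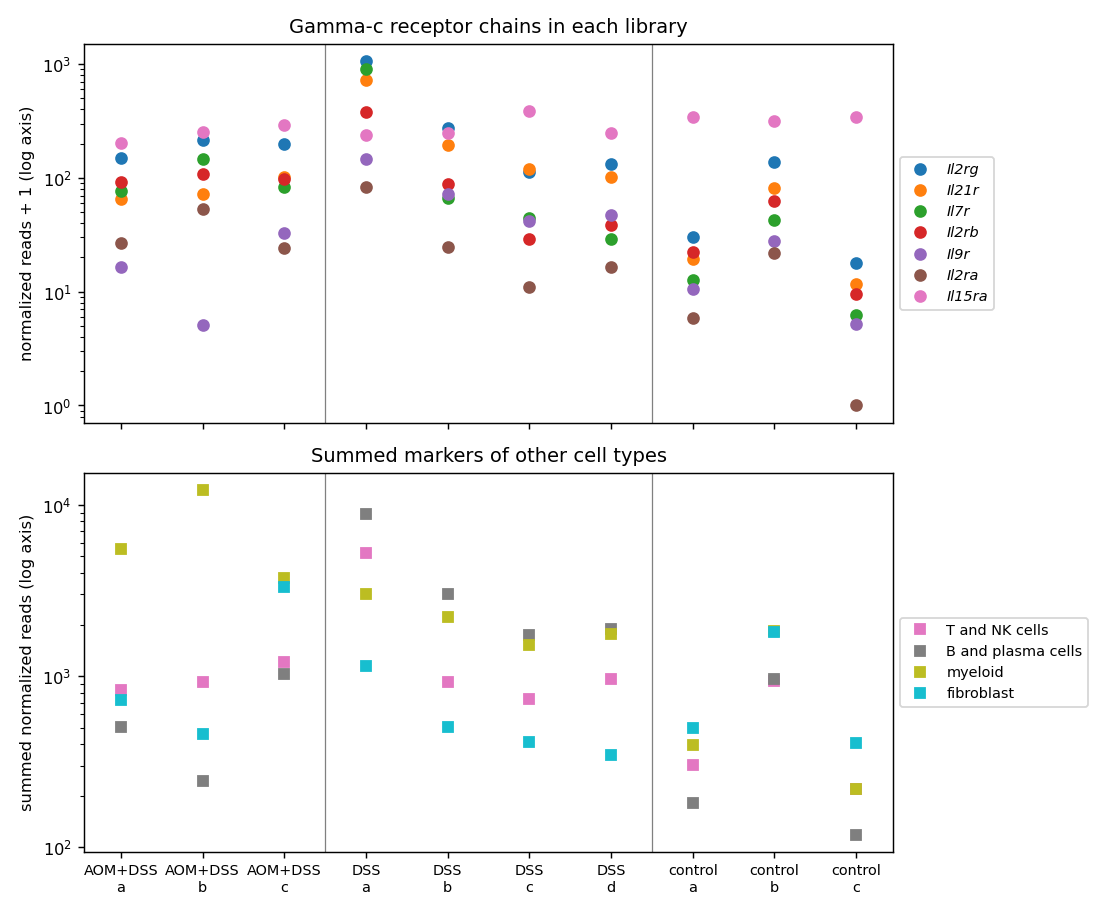
Normalized reads + 1 of 7 gamma-c receptor chains (upper panel, log axis) and summed reads of 4 marker lists (lower panel, log axis) in each library, AOM+DSS at left, control at right. DSS library a holds the highest points of 6 of the 7 chains in its group, and control library b of 6 of 7; the T and NK cell and the B and plasma cell sums are highest in the same libraries of these groups.

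Leaving out those libraries changed the count in DSS. Without both DSS a and control b, a choice made after seeing the data, 8 members passed limma, namely Il10ra, Il16, Il17re, Il21r, Il27ra, Il2rg, Il7r and Il9r, where 7.58% of all genes passed, and without control b alone 6 passed, where 6.63% did. Il9r, the interleukin-9 receptor chain, had 15.6, 4.14 and 32.04 normalized reads in AOM+DSS, 147, 70.9, 41.1 and 46.5 in DSS and 9.65, 26.7 and 4.24 in control, with DSS wholly above both other groups. Il2rb, shared by the interleukin-2 and interleukin-15 receptors, had 90.7, 108 and 96.1 in AOM+DSS, 378, 87.3, 28.3 and 37.2 in DSS and 21.2, 62.2 and 8.47 in control, and passed in neither comparison. Il16, a chemoattractant for CD4+ cells, had 73.6, 107 and 120.4 in AOM+DSS, 1032, 189.5, 118 and 141 in DSS and 27.03, 120.5 and 12.7 in control, again highest in DSS library a and control library b. By limma with all libraries, Il7r passed in AOM+DSS (2.71 ± 0.69, log2 ± SE, adjusted p = 0.0358), and so did Il10ra, the ligand-binding chain for interleukin-10 (2.40 ± 0.64, adjusted p = 0.0412). Il10ra had 121, 239.9 and 159 in AOM+DSS, 769, 197, 105 and 86.9 in DSS and 21.2, 90.9 and 14.8 in control. In the authors' deposited table neither passed in AOM+DSS, with adjusted p-values of 0.85 for Il7r and 0.589 for Il10ra. Both limma calls were lost when any library other than control b was left out (adjusted p 0.00602 to 0.134 for Il7r).

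Il3ra, the interleukin-3 receptor alpha chain, had 181, 309 and 188 normalized reads in AOM+DSS, 149, 147, 214 and 292 in DSS and 93.7, 92.8 and 111 in control. Both treated groups lay wholly above control. The authors' deposited table gave log2 ratios of 1.19 for AOM+DSS (adjusted p = 0.0377) and 1.02 for DSS (adjusted p = 0.224). Limma gave 1.14 ± 0.26 for AOM+DSS (log2 ± SE, adjusted p = 0.0252), and the adjusted p ran over 0.0266 to 0.108 when 1 library was left out, with the call lost without AOM+DSS a, AOM+DSS b, control a or control c. Its ligand Il3 had no read in any library, where a count of 0 allows up to 3 reads. Il5ra, the eosinophil and B cell receptor chain for interleukin-5, had 13.4, 121 and 28.7 in AOM+DSS, 48.2, 23.9, 7.08 and 12.4 in DSS and 0.965, 12.8 and 3.18 in control, and AOM+DSS library b held most of the AOM+DSS reads. That library also had the highest sum of the myeloid markers given with Il4ra. Their part in these receptor levels was not tested. Il34, a ligand of the macrophage growth factor receptor, had 323, 377 and 291 in AOM+DSS, 169, 351, 270.5 and 349 in DSS and 364, 345 and 459 in control, with overlapping groups.

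In the gp130 group, Il6st, which encodes gp130, had 904, 946 and 735 normalized reads in AOM+DSS, 1055, 1023, 358 and 440.5 in DSS and 379, 478 and 338 in control. AOM+DSS lay wholly above control, and in DSS libraries a and b were high and libraries c and d were among the control values. Limma gave 1.12 ± 0.17 for AOM+DSS (log2 ± SE, adjusted p = 0.00693) and 0.70 ± 0.38 for DSS (adjusted p = 0.335). The authors' deposited table had 1.11 with an adjusted p of 0.113 for AOM+DSS, so the call rests on limma. Il6, an acute inflammatory ligand, had 42 reads over the AOM+DSS libraries, 26 over the DSS libraries and 0 in control. Against the floor of 3 control reads over the group, the pooled level was at least 12.1-fold higher in AOM+DSS and at least 6.77-fold higher in DSS. By library it stood at 14.1, 15.7 and 4.42 in AOM+DSS and 14.2, 6.59, 0 and 0 in DSS, so DSS libraries c and d had none. Limma passed it in AOM+DSS (adjusted p = 0.00768) and not in DSS (adjusted p = 0.343). The receptor chain Il6ra had means of 71.3 ± 17.8 (SD, n = 3) in AOM+DSS, 80.2 ± 84.4 (SD, n = 4) in DSS and 72.5 ± 17.6 (SD, n = 3) in control, closer to each other than their SD in DSS.

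Il23a, the subunit that defines interleukin-23, had 90.7, 78.6 and 22.1 normalized reads in AOM+DSS, 14.2, 22.2, 16.99 and 26.4 in DSS and 13.5, 14.8 and 14.8 in control. AOM+DSS libraries a and b were high and library c was within the DSS range. The log2 ratio in the authors' deposited table was 2.15 (adjusted p = 0.0557) for AOM+DSS and 0.47 (adjusted p = 1) for DSS. AOM+DSS library c also had the highest smooth muscle marker sum, at 1391, 1347 and 12158 over 6 genes in AOM+DSS, 1281, 1830.0, 1163 and 1323 in DSS and 1001, 2331 and 851 in control. Its part in the lower value was not tested. With all libraries limma gave 1.85 ± 0.57 against control (log2 ± SE, adjusted p = 0.0621) and 1.43 ± 0.54 against DSS (adjusted p = 0.278). It passed against control (log2 2.47, adjusted p = 0.00833) and against DSS (log2 2.06, adjusted p = 0.0412) without AOM+DSS library c, and in no other fit that left out 1 library (adjusted p 0.0785 to 0.202 against control and 0.303 to 0.763 against DSS). Il11ra1, the interleukin-11 receptor chain, had 316, 259.7 and 594 in AOM+DSS, 436, 415, 777 and 698 in DSS and 555, 501 and 632 in control, and its reads cannot be told from those of the overlapping Ccl27a. Il12rb2, an interleukin-12 receptor chain that overlaps Serbp1, averaged 13.6 ± 2.21 (SD, n = 3) in AOM+DSS, 8.53 ± 7.32 (SD, n = 4) in DSS and 8.31 ± 4.79 (SD, n = 3) in control.

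**Figure D4:**
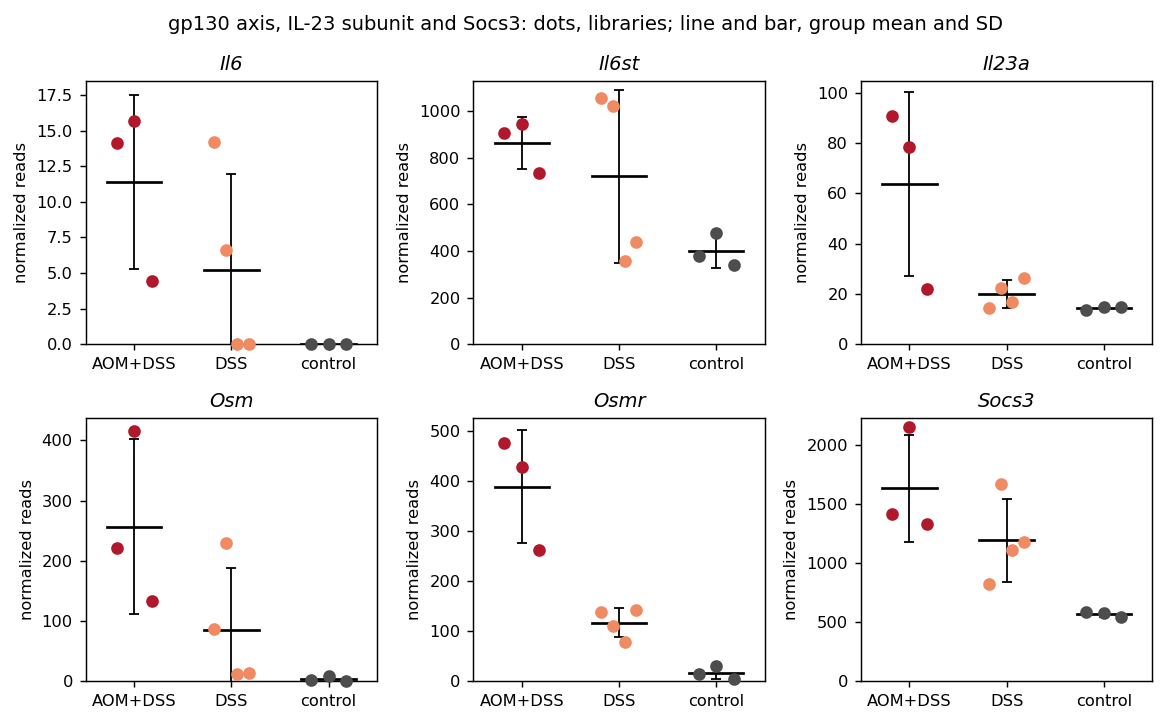
Normalized reads of Il6, Il6st and Il23a and of the non-member genes Osm, Osmr and Socs3 by group, 1 point per library, with the group mean and SD. All AOM+DSS libraries lie above all control libraries in every panel, and control Il6 is at 0.

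In the interleukin-10 group, none of the 6 receptor chains passed in the authors' deposited table. Il10rb, the shared chain for interleukin-10, interleukin-22 and related ligands, had 1976, 2025 and 2080.2 normalized reads in AOM+DSS, 1869, 2010.4, 2001 and 1967 in DSS and 1623, 1906 and 1481 in control. AOM+DSS lay wholly above control, DSS overlapped it, and neither comparison passed (limma adjusted p = 0.114 for AOM+DSS and 0.27 for DSS). Il22ra1, the epithelial interleukin-22 receptor chain, had 2997, 3085 and 2613 in AOM+DSS and 2314, 2224 and 1838 in control, with a DSS mean of 2744. Limma passed it in AOM+DSS at 0.45 ± 0.12 (log2 ± SE, adjusted p = 0.0416), and lost it without AOM+DSS a, AOM+DSS b, control a or control c (adjusted p over all libraries left out 0.0293 to 0.138). Its ligand Il22 had 3 reads over AOM+DSS, 3 over DSS and 0 over control. Il22ra2, a soluble inhibitor of interleukin-22, had 8.18, 9.099 and 16.6 in AOM+DSS, 35.6, 28.01, 8.497 and 9.31 in DSS and 17.4, 185 and 2.12 in control, so the high control mean was set by library b, and neither comparison passed.

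In the interleukin-17 group, Il17re fell in both treatments. Il17re, the chain that binds interleukin-17C, had 470.0, 333 and 528 normalized reads in AOM+DSS, 434, 571, 699.5 and 557 in DSS and 1097, 983 and 1076 in control. Both treated groups lay wholly below control; the gene overlaps Gm52872 in RefSeq. The colonocyte marker sum given above was also lower in both treated groups, most in AOM+DSS, where all 5 markers were lower. In DSS the markers were mixed: Guca2a (14239 against 12116 in control) and Aqp8 (14165 against 13452.5) were higher. Car1 was nearly level in DSS, and Car4 and Slc26a3 were lower. None of the 5 was called in either comparison. The part of colonocytes in the levels of Il17re and Il15 was not tested. The log2 ratio in the authors' deposited table was -1.25 for AOM+DSS (adjusted p = 1.97e-05) and -0.90 for DSS (adjusted p = 0.00211). Limma gave -1.27 ± 0.17 for AOM+DSS (log2 ± SE, adjusted p = 0.00544) and -0.91 ± 0.16 for DSS (adjusted p = 0.0158). The DSS call was lost when control a (adjusted p = 0.106) or control c (adjusted p = 0.0957) was left out. Il17c, its ligand, had 22.3, 12.4 and 9.94 in AOM+DSS, 15.02, 3.296, 14.2 and 4.65 in DSS and 0, 4.94 and 4.24 in control. AOM+DSS lay wholly above control, and limma gave an adjusted p of 0.0749.

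Il17a had 17.8, 33.9 and 3.31 normalized reads in AOM+DSS, 7.904, 14.01, 1.42 and 7.76 in DSS and 0.965, 0.988 and 0 in control, with both treated groups wholly above control. Library b was highest and library c lowest in both treated groups, as in the neutrophil marker sums given with Il4ra, and the T and NK cell marker sums given above were 825 to 1211 in AOM+DSS, 736 to 5243 in DSS and 218 to 939 in control. The part of these cells was not tested. In whole reads there were 68 over AOM+DSS, 33 over DSS and 2 over control, a pooled ratio of 29.4 for AOM+DSS (95% exact interval 7.84 to 247.8) and 12.9 for DSS (3.30 to 110.9). These intervals cover counting error only. The authors' deposited table gave adjusted p-values of 0.0354 for AOM+DSS and 0.253 for DSS. Limma gave 3.17 ± 0.79 for AOM+DSS (log2 ± SE, adjusted p = 0.0329), lost without AOM+DSS a, AOM+DSS b, control a or control c (adjusted p over all libraries left out 0.00737 to 0.127). Its relative Il17f averaged 3.39 ± 1.78 normalized reads (SD, n = 3) in AOM+DSS, 3.15 ± 2.700 (SD, n = 4) in DSS and 4.62 ± 2.69 (SD, n = 3) in control. Il17ra, the shared receptor chain, had 575, 642 and 718 in AOM+DSS, 1461, 764, 695 and 616 in DSS and 569.6, 595 and 516 in control, with DSS wholly above control and no test passed. Il17rc, its partner for interleukin-17A, had 2863, 2126 and 3861 in AOM+DSS and 4440.3, 3853 and 5602 in control, with overlapping groups and a DSS mean of 4648. Il17rd, a relative of the interleukin-17 receptors known as an inhibitor of growth factor signalling, had 186, 307 and 106 in AOM+DSS, 134, 87.3, 63.7 and 58.9 in DSS and 76.3, 55.3 and 109 in control, and passed in neither comparison. Il25, a ligand made by tuft cells, had 2.23, 0.827 and 1.105 in AOM+DSS, 2.37, 4.12, 9.91 and 7.76 in DSS and 3.86, 3.95 and 15.9 in control, so AOM+DSS lay wholly below both other groups, and no test passed. The sums of 5 tuft cell markers were 552, 194 and 1059 in AOM+DSS, 684, 696, 1559 and 1078 in DSS and 812, 1454 and 1105 in control. The part of tuft cells in its level was not tested.

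**Figure D5:**
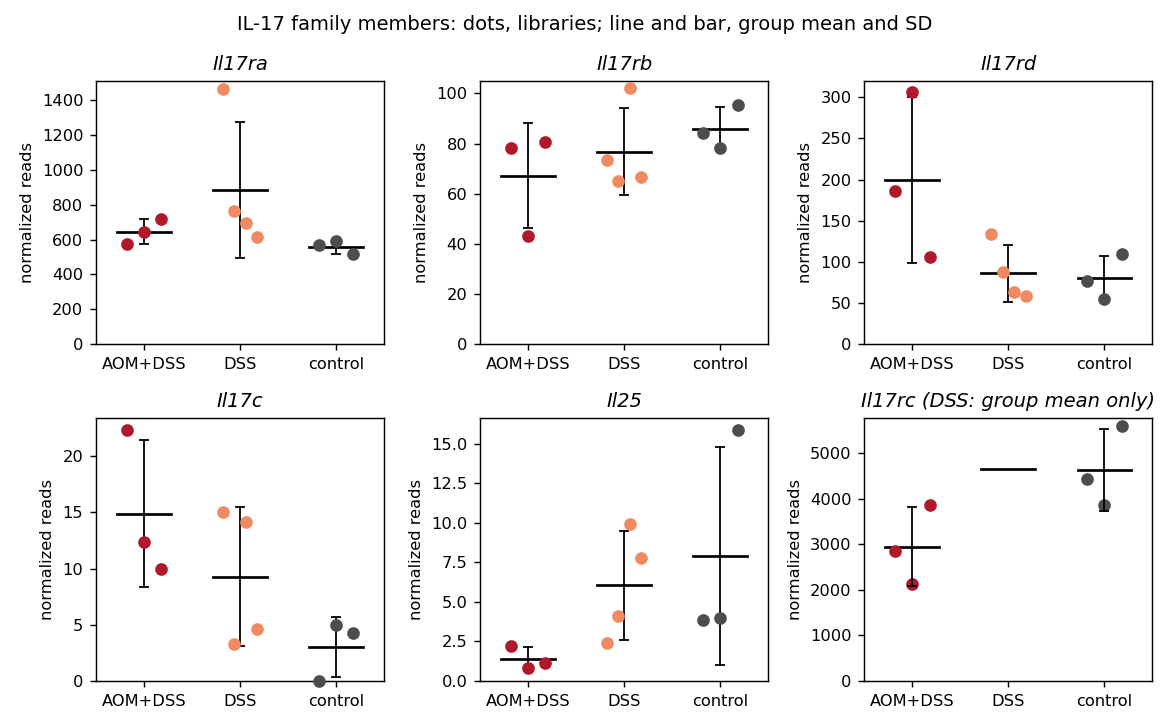
Normalized reads of Il17ra, Il17rb, Il17rd, Il17c, Il25 and Il17rc by group, 1 point per library, with the group mean and SD; Il17rc has only its mean in DSS. Il25 stays below 2.5 in all AOM+DSS libraries and Il17c below 5 in all control libraries.

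Between AOM+DSS and DSS, limma passed 0 of 52 members, where 2.35% of all genes passed (2.27% higher in AOM+DSS and 0.0821% lower). At an unadjusted p under 0.05 there were 8, of which 5 were higher in AOM+DSS and 3 lower. They were Il27, a gene that overlaps Apobr, Il17rd, Il23a, Il20ra and Il13 on the higher side and Il9r, Il25 and Il21r on the lower side. The smallest was Il9r, at -2.27 ± 0.69 (log2 ± SE), with an adjusted limma p of 0.164. Within each group, the libraries had the same order in Il9r as in the B and plasma cell marker sums given above. All DSS libraries were above all AOM+DSS libraries in those sums, while the T and NK cell sums overlapped. The part of B and plasma cells in the Il9r level was not tested. Without AOM+DSS library c, 3 members passed, Il20ra, Il23a and Il8, where 3.86% of all genes passed. Il20ra had 3, 3 and 0 reads in AOM+DSS libraries a to c and 0 over DSS. Il8 had 8, 8 and 0 in AOM+DSS and 2 over DSS. The library left out was the AOM+DSS library with no read of Il20ra or Il8, so their calls rest on that choice and on few reads. All AOM+DSS libraries lay above all DSS libraries for 1 member, Il27, and below them for 2, Il9r and Il25, against 8.82% and 3.41% of all genes (12.2% in either direction). These members were chosen after their values were seen.

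Of 42 signalling partners outside the family (kinases, STAT factors, feedback inhibitors and related cytokines and receptors), 12 rose and 1 fell in AOM+DSS, and 8 rose and 0 fell in DSS, by the authors' deposited table, where 8.89% of all genes passed in AOM+DSS (5.54% higher) and 4.39% in DSS (2.61% higher). The 1 that fell was Cish, a feedback inhibitor of STAT5 signalling, with a log2 ratio of -0.91 for AOM+DSS in the authors' deposited table (adjusted p = 0.0118). Osmr, the oncostatin M receptor chain that pairs with gp130, had 477, 428 and 262 normalized reads in AOM+DSS, 138, 110.4, 77.9 and 141 in DSS and 14.5, 30.6 and 4.24 in control. In the authors' deposited table its log2 ratio was 4.56 for AOM+DSS (adjusted p = 7.48e-15) and 2.83 for DSS (adjusted p = 2.41e-06). Osm, its ligand, had 221, 416 and 133 in AOM+DSS, 86.2, 229, 11.3 and 12.4 in DSS and 0.965, 7.901 and 0 in control, with adjusted p-values in the authors' deposited table of 0.000356 for AOM+DSS and 0.00793 for DSS. Socs1, Socs3 and Csf2rb2, the interleukin-3 beta chain of the mouse, rose in both comparisons in the authors' deposited table, with log2 ratios of 1.85, 1.52 and 3.93 for AOM+DSS and 1.70, 1.07 and 2.56 for DSS. The neutrophil marker sums given with Il4ra were also higher than control in both treated groups. In AOM+DSS, Osm, Socs3 and Csf2rb2 were highest in library b, as those sums were, but Osmr and Socs1 were highest in library a. In DSS, Socs1 was 180, 216, 353 and 399, highest in libraries c and d, where those sums were lowest. The part of neutrophils in these levels was not tested.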

How the data were processed

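RNA of epithelial crypts from the distal colon was poly(A) selected and sequenced with a kit that does not mark the strand, per the labels' protocols, so reads of overlapping genes cannot be told apart. Per the submitters' processing notes, TopHat2 2.0, the mm9 build and DESeq were used, with the read counter, annotation and strand setting not given in the sources used here. The authors deposited 2 tables of 23364 genes, 1 per treated group against control. Their signal columns are group means of read counts normalized for library size, per the file headers, and the deposited fold (ratio), log2 and p-value columns are the authors' DESeq results with Benjamini-Hochberg adjustment. For AOM+DSS, one header counts 4 replicates and the labels count 3. The planned edgeR test was not run, because the tables hold no counts per sample, and the authors' adjusted p under 0.05 decided the calls.

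Since each library adds whole reads, scaled by its own size factor, to a group mean, the steps between low means gave the size factors. A gene was recovered where 1 combination of whole reads gave the printed mean: 99.9% of genes in AOM+DSS, 89.1% in DSS and 99.5% in control. Limma 3.58.1 (R 4.3.3, with trend) was fitted to log2(normalized reads + 1) of recovered libraries over all genes, and both steps were tested on simulated data. Its fold changes understate those of low genes. Exact intervals came from scipy 1.17.1. Alternatives were other thresholds, pseudocounts of 0.5 and 5, a mean of at least 10, upper-quartile scaling and leaving out each library.

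The members and lists were chosen with earlier results of these data known. Named were members called, the 10 highest, ligands or receptor chains of called members, and the 3 highest and lowest log2 ratios per comparison. Others named, among them Il6, Il7, Il6ra, Il8, Il10ra, Il13ra2, Il20ra, Il22, Il25, Il27 and Cish, were chosen after their values were seen.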

Additional observations from a re-analysis of the deposited data

Results flagged for a closer look

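In the DSS group, 25 members were tested for 1 library lying far from the other 3, and 8 stood out. Chance gives such a result in about 1 in 20 groups, but that rate cannot be set against the 8. Most of the 8 were flagged in the same library, so they are not separate groups. Il4 and Il13 had DSS reads in that library only. Library a was far above the rest for Il2rg (1061 normalized reads), Il16 (1032), Il7r (914), Il21r (721) and Il2rb (378). Library a also held the only reads of Il4 (1.58, 2 reads) and Il13 (0.79, 1 read), where the count is too low to describe more. Library c was highest for Il15ra (389). In the T and NK cell and the B and plasma cell marker sums, library a was the highest of the DSS libraries as well; the part of these cells was not tested.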

How the results depend on the processing

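In AOM+DSS against control, the authors' deposited table called 5 members at an adjusted p under 0.05, 8 under 0.1 and 2 under 0.01, while limma called 12. In DSS against control, the authors' deposited table called 2 and limma called 1, since Il4ra could not be tested there. Signalling partners numbered 13 in the authors' deposited table and 21 by limma in AOM+DSS, and 8 and 5 in DSS, where limma could test 33 of 42. Leaving out 1 library moved the limma count between 4 (without AOM+DSS a, control a or control c, where 3.97%, 2.93% and 3.93% of all genes passed) and 23 (without control b, 23.7% of all genes) in AOM+DSS. It moved the count between 0 (without control a or control c, 0.937% and 1.03% of all genes) and 6 (without control b, 6.63%) in DSS, and between 0 and 3 (without AOM+DSS c, 3.86%) between the treatments, so the counts over all genes moved as well. Il4ra, Il17re, Il6 and Il6st passed in every AOM+DSS fit that left out 1 library. With a mean of at least 10, limma called 2 in DSS, and without both DSS a and control b, chosen after seeing the data, it called 8 (7.58% of all genes). Pseudocounts and upper-quartile scaling left the limma counts as they were. Of 826 values of single genes under these alternatives, 28 had the other sign, 23 of them with 1 library left out, in 11 genes; none of these passed in either fit. Without control b, the limma log2 value of Il22ra2 was 0.64 in AOM+DSS and 1.25 in DSS, against -0.90 and -0.29 with all libraries. Il9r in AOM+DSS was -0.32 without AOM+DSS c, against 0.29. In DSS, Il6ra had a log2 ratio of 0.15 in the authors' deposited table and -0.47 by limma. Adding 1 to both means moved the log2 ratio of Il17a to 3.55 in AOM+DSS and 2.41 in DSS. No paired analysis was possible because the recovered libraries carry no replicate number of the labels. The lowest DSS mean that was not recovered was 1383, and low counts limit what Il4, Il13 and Il22 can show.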
